A study of Caenorhabditis elegans with 27 samples.

Results

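Worms clear propionate by either of 2 routes, and the genes described here are those of both routes in whole Caenorhabditis elegans. The 10 genes were chosen by name from the 46934 genes of the count table. The 5 genes of the propionate shunt were acdh-1, ech-6, hach-1, hphd-1 and alh-8. The 4 genes of the vitamin B12-dependent route were pcca-1, pccb-1, mce-1 and mmcm-1, and the last gene was metr-1, the methionine synthase.

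Worms of the N2 strain, the wild type per the labels, were kept at 20 °C from the L4 stage. Their food was the bacterium Escherichia coli OP50, given alone or together with black rice extract (BRE). Whole worms, about 1000 to a sample, were taken on OP50 at days 1, 6, 11, 15 and 17 after L4 and on BRE at days 6, 11, 15 and 17. Each of the 9 groups had 3 libraries, which the labels call biological replicates, and day 1 had no BRE group. Extract at 0, 0.42, 1.04 and 1.67 mg/mL is named in the labels, which assign none of these doses to the sequenced BRE worms.

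Propionyl-CoA arises from the breakdown of valine, isoleucine, methionine, threonine and odd-chain fatty acids. With enough vitamin B12, propionyl-CoA carboxylase, methylmalonyl-CoA epimerase and the B12-dependent methylmalonyl-CoA mutase turn it into succinyl-CoA for the tricarboxylic acid cycle. When B12 is scarce and propionate builds up, C. elegans turns on the shunt, which oxidizes propionyl-CoA to acetyl-CoA through an acyl-CoA dehydrogenase (ACDH-1), an enoyl-CoA hydratase (ECH-6), a hydrolase (HACH-1), a hydroxyacid-oxoacid transhydrogenase (HPHD-1) and an aldehyde dehydrogenase (ALH-8). The nuclear hormone receptors NHR-10 and NHR-68 are needed for that response, and OP50 is known as a bacterial diet low in B12. Methionine synthase (METR-1) is the other B12-dependent enzyme of the worm and joins B12 to the methionine cycle.

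Library totals ran from 101.61 to 164.34 M counts (median 137.09 M). Counts sufficed to test 19290 genes, all 10 of these among them. Levels are in CPM, counts scaled to a common normalized library total, and levels of different genes are compared only as CPM per kb of exon. Each difference is a log2 fold change fitted by edgeR, with its standard error (SE), and a gene is called where its p, adjusted by Benjamini-Hochberg over every gene tested, is under 0.05. Since whole worms were sequenced, fewer cells of a type and less RNA per cell cannot be told apart. In 4 libraries of days 11 to 17 the summed sperm markers were between 9.46 and 25.9 CPM, against 8.38 CPM or less in the others. These were OP50 day 11 replicate 1, BRE day 11 replicate 1, OP50 day 15 replicate 3 and OP50 day 17 replicate 1, and they also stood apart on the third principal component (7.22% of the variance). Results that changed without them are given below with their values.

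The first comparison asked how the 10 genes change with age on OP50 alone. Genes of the shunt fell by day 6, and the first of them, acdh-1, was at under 1 CPM by day 17. Of the 4 genes of the B12-dependent route none was called at day 6, and all were called lower at day 17. At day 6 against day 1, 5 of the 10 genes were called, all lower, where 33% of all genes were called and 19% were called lower. They were 4 of the 5 shunt genes and metr-1. At day 11, 9 of 10 were called lower (35.8% of all genes called, 16.6% lower). At day 15 all 10 were (47.2%, 21.1% lower), and at day 17 all 10 were again (53.9%, 24.8% lower). These 4 comparisons share the day 1 libraries. The median log2 difference of the shunt genes was -1.52 at day 6 and -2.29 at day 17, and that of the 5 B12-dependent genes was -0.31 and -1.32, beside medians over all genes tested of -0.1 and 0.1. The difference between the sets was not tested.

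**Figure D1:**
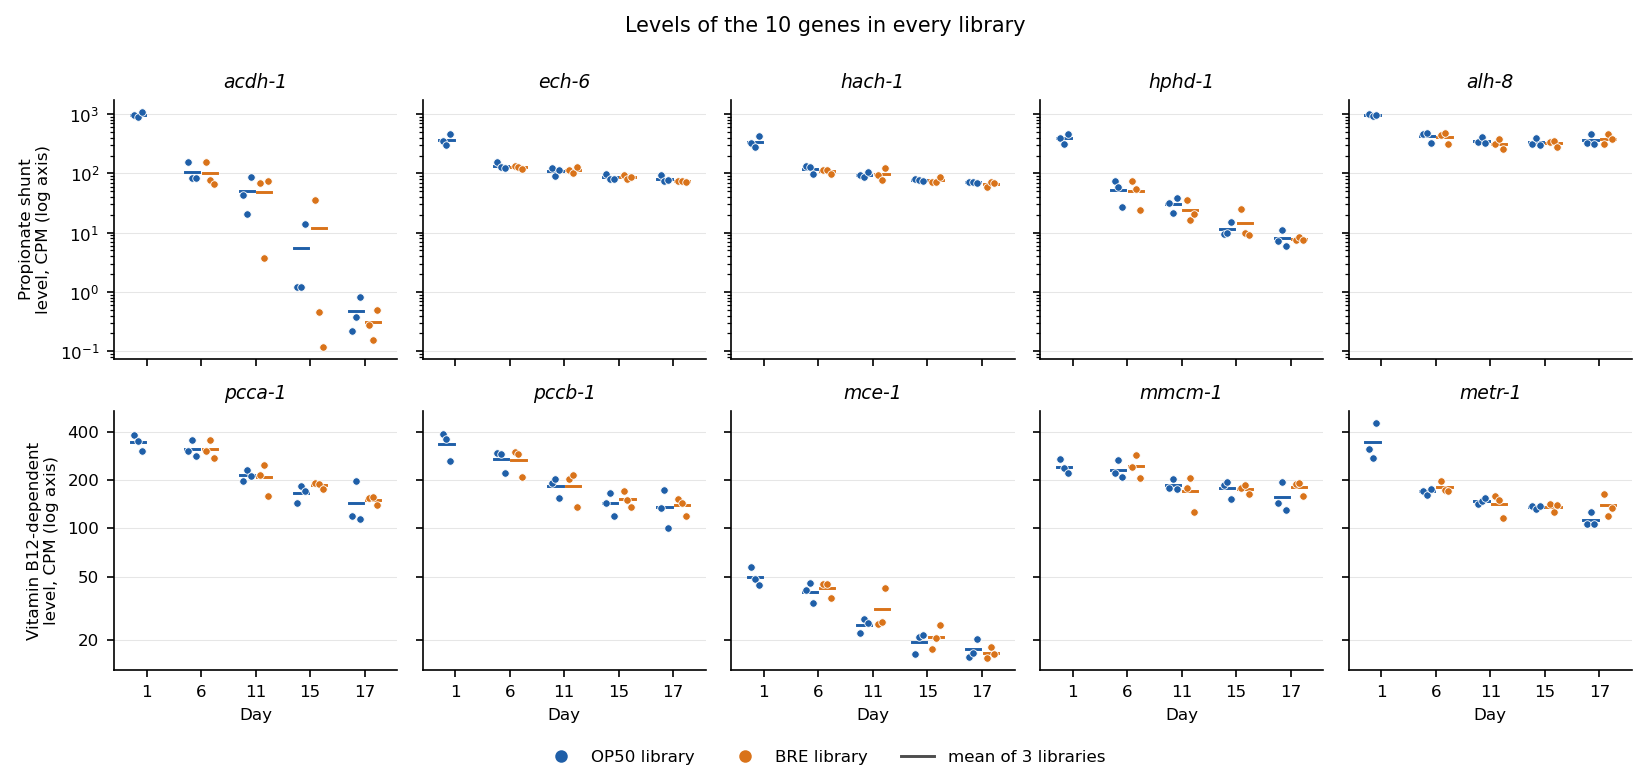
Level of each of the 10 genes in CPM on a log axis by day, with 1 point per library (OP50 blue, BRE orange) and a bar at the mean of 3 libraries; the upper row holds the shunt genes on one scale and the lower row the B12-dependent genes on another. The acdh-1 points drop from between 891 and 1090 CPM at day 1 to under 1 CPM at day 17, and OP50 and BRE points of the same day lie among each other for most genes.

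The gene acdh-1 (WBGene00016943, chromosome I, 6497436 to 6499560 on the plus strand of WBcel235) encodes the acyl-CoA dehydrogenase that starts the shunt. In the OP50 libraries it stood at 953, 891 and 1090 CPM at day 1, and at 155, 82.7 and 83.1 CPM at day 6. At day 11 the OP50 libraries held 42.4, 20.9 and 87.5 CPM, and at day 15 they held 1.23, 1.23 and 14.2 CPM. By day 17 they held 0.218, 0.381 and 0.809 CPM, which came from 26, 54 and 131 counts. Every OP50 library of day 6 or later lay below every day 1 library, and days 15 and 17 did not overlap with any earlier day. The log2 difference from day 1 was -3.19 at day 6 (SE 1.26, adjusted p = 0.0543), which was not called, and acdh-1 fell by 4.28 at day 11 (SE 1.32, adjusted p = 0.0147). It fell by 7.45 at day 15 (SE 1.54, adjusted p = 0.000406) and fell by 10.99 at day 17 (SE 1.79, adjusted p = 2.39e-05). The last of these is a fold of 2030, with a 95% interval of the log2 difference from -14.7 to -7.27.

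How firmly the early fall of acdh-1 can be called depended on the fit. The day 6 difference of acdh-1 lay between -3.521 and -3.029 in every alternative run. It was called with DESeq2 (adjusted p = 0.0311), with only the compared groups in the fit (0.000497), with a replicate block (0.028), without the low-count filter (0.0492) and without the 4 sperm-rich libraries (0.0469). Leaving out OP50 day 11 replicate 1 ended the day 11 call (-4.21, adjusted p = 0.0514), and so did leaving out replicate 2 of that group (-3.95, adjusted p = 0.0599).

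No other gene of the 10 varied as much between libraries of the same group as acdh-1. Its SD within groups was 1.87 log2 units, larger than that of 99.9% of the 11553 genes with a mean of at least 1 CPM, and the SD of hphd-1 was 0.57, larger than that of 93%. For the other 8 genes the SD lay between 0.17 and 0.27. On BRE, acdh-1 was at 157, 78.7 and 65.3 CPM at day 6 and at 68.2, 3.68 and 74.9 CPM at day 11. At day 15 the BRE libraries held 35.5, 0.466 and 0.118 CPM, a ratio of 300 between the highest and the lowest from 4820 and 16 counts, and at day 17 they held 0.28, 0.155 and 0.495 CPM. A single library therefore carries the day 15 mean of each diet, OP50 replicate 3 and BRE replicate 1.

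The gene hphd-1 (WBGene00012608, chromosome II, 12994354 to 12996571, minus strand), for the transhydrogenase of the fourth step, had the second largest fall. Its day 1 libraries were at 397, 317 and 463 CPM and its OP50 day 6 libraries at 74, 58.9 and 27.3 CPM. OP50 day 11 gave 31.9, 21.4 and 38.1 CPM, day 15 gave 9.58, 10 and 15.1 CPM, and day 17 gave 7.11, 11.2 and 5.95 CPM. The day 1 libraries were apart from all later ones, and days 11 and 15 did not overlap either. On OP50 hphd-1 fell by 2.88 log2 units at day 6 (SE 0.44, adjusted p = 4.01e-05) and by 5.6 at day 17 (SE 0.5, adjusted p = 6.03e-09), a fold of 48.4.

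The hydratase gene ech-6 and the hydrolase gene hach-1 fell too, by less than hphd-1. For ech-6 (WBGene00001155, chromosome III, 9751552 to 9752883, minus strand) the libraries were at 346, 302 and 465 CPM at day 1, at 153, 128 and 124 CPM at OP50 day 6 and at 92.3, 73.9 and 77.8 CPM at OP50 day 17. For hach-1 (WBGene00017301, chromosome III, 5555450 to 5557318, plus strand) they were at 326, 275 and 432 CPM, then at 134, 130 and 97.5 CPM, then at 70.6, 72.5 and 68.2 CPM. In both genes day 1 replicate 3 was the highest library and no later library reached the lowest day 1 value. The gene ech-6 fell by 1.46 log2 units at day 6 (SE 0.15, adjusted p = 1.67e-07) and by 2.19 at day 17 (SE 0.15, adjusted p = 8.65e-11). The gene hach-1 fell by 1.52 (SE 0.16, adjusted p = 4.62e-07) and by 2.29 (SE 0.17, adjusted p = 2.65e-10).

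The dehydrogenase gene alh-8 (WBGene00000114, chromosome II, 11729055 to 11731198, plus strand), for the last step of the shunt, fell by day 6, and its later steps were not called. It was at 984, 929 and 961 CPM at day 1 and at 464, 479 and 321 CPM at OP50 day 6. At OP50 day 17 it was at 321, 458 and 312 CPM, overlapping with day 6. The fall from day 1 was 1.18 log2 units at day 6 (SE 0.2, adjusted p = 0.00012) and 1.4 at day 17 (SE 0.2, adjusted p = 5.6e-06), and no step between neighbouring later days was called on either diet. A 34 bp stretch of its exons overlaps F13D12.8 on the other strand, a gene with 9359 counts in all libraries against 1534788 for alh-8.

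The genes of the B12-dependent route kept most of their level through day 6. The carboxylase subunit gene pcca-1 (WBGene00017864, chromosome X, 7657542 to 7660986, minus strand) was at 386, 353 and 307 CPM at day 1 and at 305, 355 and 282 CPM at OP50 day 6. It went on to 199, 233 and 214 CPM at day 11, 145, 185 and 172 CPM at day 15, and 120, 197 and 115 CPM at day 17. Days 1 and 6 overlapped, and days 11 to 17 were below both. The log2 difference of pcca-1 was -0.15 at day 6 (SE 0.18, adjusted p = 0.535), and it fell by 0.69 at day 11 (SE 0.18, adjusted p = 0.00392) and by 1.28 at day 17 (SE 0.18, adjusted p = 3.32e-06). With library totals alone as the scaling the day 6 difference was 0.01 and the day 11 call was lost (-0.37, adjusted p = 0.0815).

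The second carboxylase subunit gene, pccb-1 (WBGene00018701, chromosome X, 3089549 to 3092437, plus strand), ran from 391, 365 and 263 CPM at day 1 through 296, 291 and 223 CPM at OP50 day 6 to 134, 173 and 101 CPM at OP50 day 17. The epimerase gene mce-1 (WBGene00008415, chromosome I, 7582106 to 7583333, plus strand) ran from 57.3, 48.2 and 44.4 CPM through 41, 45.4 and 34.2 CPM to 15.6, 16.7 and 20.4 CPM. In both genes days 1 and 6 overlapped, and day 17 was below both. Neither was called at day 6, with pccb-1 at -0.33 (SE 0.21, adjusted p = 0.224) and mce-1 at -0.31 (SE 0.18, adjusted p = 0.195), although the replicate block called pccb-1 (-0.32, adjusted p = 0.0121). By day 17 pccb-1 fell by 1.32 (SE 0.21, adjusted p = 1.61e-05) and mce-1 by 1.51 (SE 0.19, adjusted p = 6.96e-07). The exons of pccb-1 share 43 bp with wrt-2 on the other strand, which had 2980 counts in all.

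The mutase gene mmcm-1 (WBGene00014202, chromosome III, 3903185 to 3907687, minus strand), whose enzyme uses B12 itself, changed least of the 10 at day 17. Its libraries were at 270, 239 and 222 CPM at day 1, and at 221, 267 and 211 CPM at OP50 day 6. OP50 day 11 gave 178, 204 and 177 CPM, day 15 gave 188, 196 and 152 CPM, and day 17 gave 145, 196 and 131 CPM. From day 11 on, every OP50 library was below every day 1 library. The log2 difference was -0.06 at day 6 (SE 0.17, adjusted p = 0.8) and -0.39 at day 11 (SE 0.17, adjusted p = 0.0775), and mmcm-1 fell by 0.45 at day 15 (SE 0.17, adjusted p = 0.0334) and by 0.63 at day 17 (SE 0.17, adjusted p = 0.00346), a fold of 1.55. With the replicate block mmcm-1 was called at day 11 too (-0.39, adjusted p = 0.00487), as it was with only the compared groups (-0.37, adjusted p = 0.0371). The day 17 call of mmcm-1 did not hold without OP50 day 1 replicate 1 (-0.495, adjusted p = 0.0529), without OP50 day 17 replicate 1 (-0.49, adjusted p = 0.0563), without the sperm-rich libraries (-0.49, adjusted p = 0.0619) and with library totals alone (-0.16, adjusted p = 0.375). The day 15 call was lost on leaving out any of 5 of its 6 libraries, all but OP50 day 15 replicate 2 (lost calls between -0.44 and -0.32), with DESeq2 (-0.41, adjusted p = 0.0729), with RLE size factors (-0.41, adjusted p = 0.0647), without the sperm-rich libraries (-0.3, adjusted p = 0.27) and with library totals alone (-0.03, adjusted p = 0.893).

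Methionine synthase fell at day 6, when edgeR called none of the 4 route genes. The gene metr-1 (WBGene00010988, chromosome II, 10926561 to 10931078, plus strand) was at 312, 277 and 455 CPM at day 1, at 172, 163 and 176 CPM at OP50 day 6, and at 106, 127 and 107 CPM at OP50 day 17. The 3 day groups did not overlap, and day 1 replicate 3 was the highest. The fall was 1.03 log2 units at day 6 (SE 0.15, adjusted p = 2.06e-05) and 1.62 at day 17 (SE 0.15, adjusted p = 1.17e-08). The difference between metr-1 and the other genes in this fall was not tested.

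**Figure D2:**
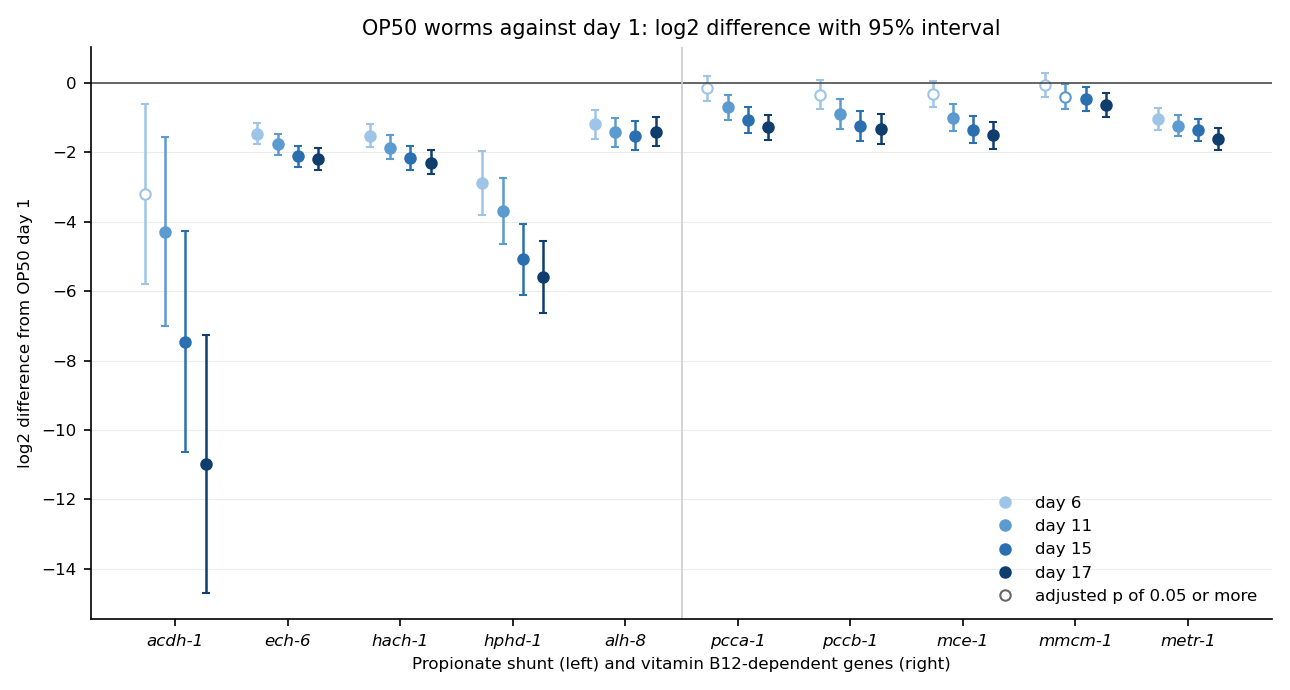
Log2 difference of each gene between OP50 worms of days 6, 11, 15 and 17 (light to dark blue) and OP50 day 1, with the 95% interval of the edgeR fit, for the 5 shunt genes on the left and the 5 B12-dependent genes on the right; open points were not called. The intervals of acdh-1 are the widest, from -14.7 to -7.27 at day 17, and the open points are acdh-1, pcca-1, pccb-1, mce-1 and mmcm-1 at day 6 and mmcm-1 at day 11.

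Steps between neighbouring days on one diet were tested as well. From day 6 to day 11 on OP50, 2 of the 10 genes were called, both lower, where 16.4% of all genes were called and 3.89% lower. The gene pcca-1 fell by 0.54 log2 units (SE 0.18, adjusted p = 0.0369) and mce-1 by 0.68 (SE 0.18, adjusted p = 0.0129). The pcca-1 call was lost on leaving out any 1 of its 6 libraries (between -0.62 and -0.43) and without the sperm-rich libraries (-0.47, adjusted p = 0.152), the mce-1 call needed OP50 day 6 replicate 2 (-0.57, adjusted p = 0.0583 without it), and both were lost with library totals alone. On BRE over the same days 2 of 10 were called lower (14.9% of all genes called, 2.23% lower), pcca-1 by 0.58 (SE 0.18, adjusted p = 0.0279) and mmcm-1 by 0.52 (SE 0.17, adjusted p = 0.0401). Both BRE calls were lost without BRE day 6 replicate 1, without BRE day 6 replicate 2 or without BRE day 11 replicate 3, where pcca-1 stood at -0.66, -0.55 and -0.42 and mmcm-1 at -0.58, -0.47 and -0.34, and both were also lost with library totals alone and with only the compared groups in the fit. No difference between diets in these steps was tested.

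From day 11 to day 15, 0 of 10 genes were called on OP50 by edgeR (5.95% of all genes called), with 4 at an unadjusted p under 0.05 and 1 called by DESeq2. The nearest was hphd-1, at -1.4 (SE 0.42, adjusted p = 0.0522). On BRE 1 of 10 was called (12.2% of all genes called, 5.66% lower), mce-1, which fell by 0.57 (SE 0.18, adjusted p = 0.0462). That call was lost without any of BRE day 11 replicates 1, 2 and 3 or BRE day 15 replicates 1 and 2 (between -0.56 and -0.3), with RLE size factors, with library totals alone, without the filter, with only the compared groups and without the sperm-rich libraries. From day 15 to day 17, edgeR called 0 of 10 on OP50, where it called 0% of all genes, with 1 gene at an unadjusted p under 0.05 and 0 called by DESeq2. On BRE it also called 0 of 10 (1.23% of all genes called), with 2 at an unadjusted p under 0.05 and 1 called by DESeq2. The log2 difference of acdh-1 in this last step was -3.53 on OP50 (95% interval -6.39 to -0.68) and -5.27 on BRE (-8.33 to -2.2).

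The order of the transcripts within the shunt turned over with age. Per kb of exon, the day 1 level was 582 ± 59.6 CPM (SD, n = 3) for acdh-1, the highest of the 10 genes, followed by alh-8 at 541 ± 15.6, whose libraries overlapped with it, ech-6 at 365 ± 83, hphd-1 at 236 ± 44 and hach-1 at 231 ± 53.6. At OP50 day 17 alh-8 led at 205 ± 46.1 CPM per kb, with ech-6 at 80.1 ± 9.53, hach-1 at 47.2 ± 1.45, hphd-1 at 4.87 ± 1.67 and acdh-1 last at 0.28 ± 0.182. The lowest of the 10 at day 17 were therefore acdh-1 and hphd-1, the genes of steps 1 and 4. Along the B12-dependent route the order changed less, from pccb-1 at 182 ± 36.3, pcca-1 at 143 ± 16.1, mmcm-1 at 98.4 ± 9.94 and mce-1 at 61.6 ± 8.13 CPM per kb at day 1 to 73.1 ± 19.5, 58.9 ± 19, 63.6 ± 13.9 and 21.7 ± 3.09 at OP50 day 17. At day 17 the libraries of pccb-1, mmcm-1 and pcca-1 overlapped.

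Within a library, the summed shunt level was several times that of the route at day 1 and only a little above it afterwards. The ratio of the 5 shunt genes to the 4 route genes, each summed as CPM per kb, was 3.51, 3.48 and 5.39 in the day 1 libraries and 1.51, 1.22 and 1.2 at OP50 day 6. It was 1.63, 1.41 and 1.69 at OP50 day 17, and no library of day 6 or later on either diet exceeded 1.69. Day 1 lay apart from every later group. From day 6 on, BRE and OP50 overlapped on each day, whereas OP50 day 17 lay above both BRE day 6 (1.36, 1.17 and 1.15) and BRE day 15 (1.38, 1.28 and 1.25). An exact two-sided permutation test over 3 against 3 libraries gave p = 0.1 for day 6 against day 1, the smallest that 20 splits allow. The share of acdh-1 in the summed shunt level was 29.8% ± 0.777 at day 1, 11.5% ± 2.87 at OP50 day 6, and 6.98% ± 4.43 at OP50 day 11 (SD, n = 3). It was 1.04% ± 1.44 on day 15 of OP50 and 0.0859% ± 0.0639 on day 17.

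**Figure D3:**
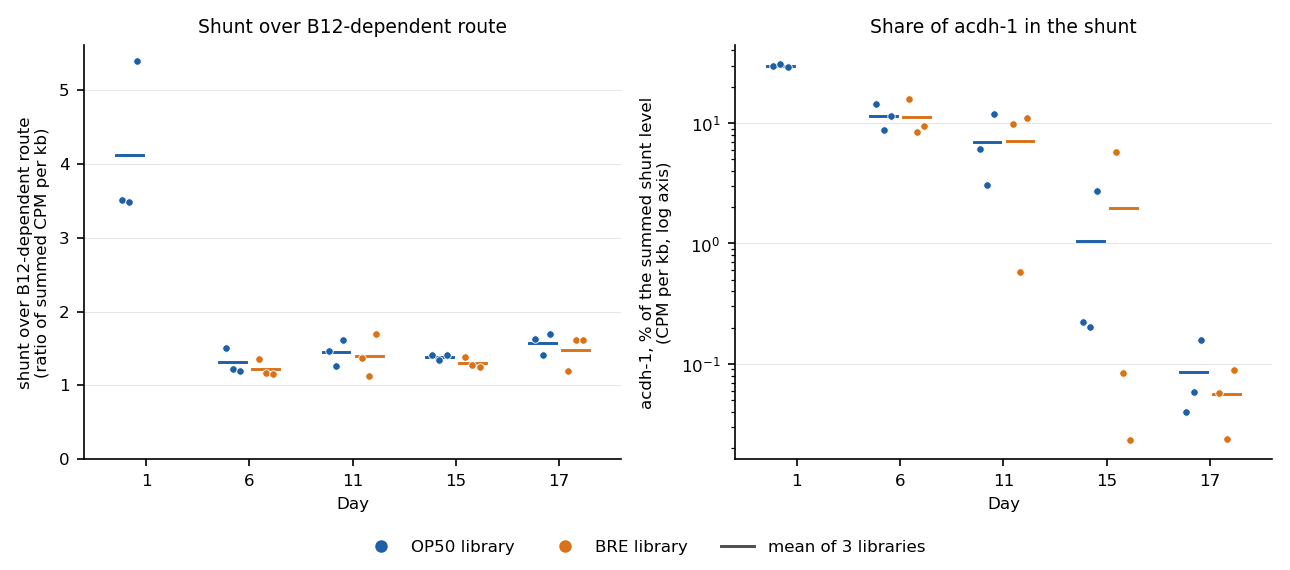
Left, ratio of the summed shunt level to the summed level of the B12-dependent route (CPM per kb) in each library by day; right, acdh-1 as a percentage of the summed shunt level on a log axis; points are libraries (OP50 blue, BRE orange) and bars the mean of 3. The ratio is between 3.48 and 5.39 at day 1 and at most 1.69 later, while the share of acdh-1 goes on down from 29.8% to under 1% at day 17.

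Markers of several tissues fell over the same ages, those of body wall muscle the most by their median at day 17. The 10 body wall muscle markers summed to between 4950 and 6910 CPM at day 1, between 923 and 1770 CPM at OP50 day 6 and between 1080 and 1480 CPM at OP50 day 17, with 9 of 10 called lower at day 6 (median log2 difference -2.21) and 10 of 10 at day 17 (median -3.21). For all genes the share called lower was 19% at day 6 and 24.8% at day 17. The intestine is a tissue where acdh-1 is known to be expressed, and its 10 markers summed to between 3330 and 4020 CPM at day 1, between 722 and 838 CPM at OP50 day 6 and between 583 and 823 CPM at OP50 day 17, with 8 of 10 called lower at day 6 (median -2.03) and again at day 17 (median -1.89). Of 10 neuron markers, 8 were called lower at day 6 (median -1.2), and at day 17 there were 2 lower and 2 higher (median -0.15), with sums between 385 and 482 CPM at day 1, between 294 and 381 CPM at OP50 day 6 and between 468 and 507 CPM at OP50 day 17. No marker of these 3 lists was at 0 in any library. The 7 hypodermis markers summed to between 798 and 840 CPM at day 1, between 288 and 368 CPM at OP50 day 6 and between 199 and 329 CPM at OP50 day 17, with 4 of 7 called lower at day 6 and 2 of 7 at day 17, the latter near the share over all genes, and with a median log2 difference at day 17 of 0.28. The part of these tissues in the fall of the shunt was not tested. Germline and oocyte markers, 9 in all and all counted in every library, summed to between 12900 and 13300 CPM at day 1, between 12300 and 13400 CPM at OP50 day 6 and between 4790 and 7970 CPM at OP50 day 17. Their part in the later fall of the B12-dependent route was not tested. Between OP50 days 6 and 17 the summed intestine levels overlapped. Of the 10 intestine markers, 2 were called lower and 0 higher from OP50 day 6 to day 11, against 3.89% of all genes lower. The median log2 difference of the list in that step was 0.25, beside 0.07 over all genes. Its sum at OP50 day 11 was between 840 and 957 CPM, above the range of OP50 day 6. From OP50 day 11 to day 15, 1 marker was called lower, against 2.88% of all genes, and the median of the list was -0.05. Over days 6 to 17 acdh-1 went from between 82.7 and 155 CPM to under 1 CPM. The part of the intestine in that later fall was not tested.

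Of the 4 regulators of the B12 response listed, 3 were called lower at day 17, where 53.9% of all genes were called and 24.8% were called lower. The receptor gene nhr-68, needed to turn on acdh-1, was at 24.3, 25.5 and 26.7 CPM at day 1 and at 7.77, 7.69 and 7.25 CPM at OP50 day 6. OP50 day 11 gave 8.83, 5.93 and 14.3 CPM and day 17 gave 1.01, 1.75 and 2.42 CPM, all below day 1. It fell by 3.88 log2 units at day 17 (SE 0.49, adjusted p = 9.42e-07). The receptor gene nhr-114, tied to the methionine cycle branch of the B12 response, fell by 4.37 at day 6 (SE 0.32, adjusted p = 1.96e-09), from 49.3 ± 11.7 to 2.39 ± 0.162 CPM, and stayed there, at 2.63 ± 0.601 CPM at day 17 (SD, n = 3). The sterol regulator gene sbp-1 fell by 1.05 at day 17 (SE 0.27, adjusted p = 0.0023), with groups that overlapped. Leaving out OP50 day 1 replicate 2 (-0.58, adjusted p = 0.0809) or scaling by library totals alone (-0.57, adjusted p = 0.0943) ended that call. The other receptor of the shunt, nhr-10, was not called (-0.41, SE 0.18, adjusted p = 0.0585), was called lower without OP50 day 17 replicate 3 (-0.56, adjusted p = 0.0235) and with the replicate block (-0.42, adjusted p = 0.0225), and was at 0.09 with library totals alone. The median of the 4 was -2.47, beside 0.1 over all genes.

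Of 6 genes of B12 trafficking and cofactor making, 3 were called lower at day 17 (median -0.25), against 24.8% of all genes. The transporter gene pmp-5, related to a human lysosomal B12 transporter, went from 79.4, 60.8 and 124 CPM at day 1 to 6.74, 3.71 and 3.43 CPM at OP50 day 6 and to 1.39, 1.3 and 1.01 CPM at OP50 day 17, and fell by 6.16 log2 units at day 17 (SE 0.55, adjusted p = 5.84e-09). The chaperone gene mmaa-1, which serves the mutase, fell by 0.42 (SE 0.11, adjusted p = 0.00205) and the methionine synthase reductase gene mtrr-1 by 0.37 (SE 0.1, adjusted p = 0.00275). Both flipped with library totals alone, to 0.06 and 0.11, both calls were lost with only the compared groups (-0.38, adjusted p = 0.0639, and -0.34, adjusted p = 0.118), and mtrr-1 was not called without OP50 day 1 replicate 3 (-0.15, adjusted p = 0.176). The adenosyltransferase gene mmab-1, which makes the cofactor of the mutase, was not called (-0.13, SE 0.19, adjusted p = 0.582) and was at 0.35 with library totals alone.

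Around methionine synthase, 11 of 17 genes of the methionine and S-adenosylmethionine cycle and its branches were called lower at day 17 and 2 higher (median -0.74), against 24.8% of all genes lower and 53.9% called in either direction. The phosphoethanolamine methyltransferase genes, users of S-adenosylmethionine in phosphatidylcholine synthesis, fell, pmt-2 from between 330 and 523 CPM at day 1 to between 20.5 and 34.2 CPM at OP50 day 17 (log2 -3.83, SE 0.29, adjusted p = 4.22e-10) and pmt-1 from 246 ± 12.6 to 79.1 ± 13.3 CPM (-1.64, SE 0.16, adjusted p = 2.01e-08). The S-adenosylmethionine synthetase gene sams-1 went from 133 ± 32.2 CPM at day 1 to 7.11 ± 1.48 at OP50 day 6 and 20.3 ± 3.41 at day 17, and was called lower at both (-4.22 and -2.71, adjusted p = 8.57e-10 and 3.27e-08). The cystathionine gamma-lyase gene cth-1 fell by 2.49 (SE 0.27, adjusted p = 8.76e-08). This list also holds mtrr-1, already counted with the genes of B12 trafficking. The 2 that rose were the cystathionine beta-synthase genes cbs-1, by 0.76 (SE 0.21, adjusted p = 0.00486), and cbs-2, by 2.03 from 0.233 to 0.956 CPM (SE 0.36, adjusted p = 6.11e-05), both named after their values were seen.

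Genes of branched-chain amino acid catabolism were listed too, and not all of them serve steps that yield propionyl-CoA. At day 6, 6 of these 12 genes were called lower (median -0.39), against 19% of all genes. At day 17 all 12 were called lower (median -0.99), against 24.8% of all genes. The 4 with the smallest adjusted p were acdh-9, an acyl-CoA dehydrogenase gene, at -2.6 (SE 0.14, adjusted p = 3.11e-12), the methylcrotonyl-CoA carboxylase genes mccc-1 at -1.36 (SE 0.11, adjusted p = 6.88e-10) and mccc-2 at -1.14 (SE 0.09, adjusted p = 1.44e-09), and B0250.5 at -1.2 (SE 0.15, adjusted p = 8.51e-07). Of 13 other acyl-CoA dehydrogenase genes, 10 were called lower at day 17 and 1 higher (median -0.65), against 24.8% of all genes lower. The genes acdh-3, acdh-9 and ivd-1 are in both lists and so are counted in each. The 1 that rose was acdh-5, by 1.32 from 0.167 to 0.419 CPM (SE 0.35, adjusted p = 0.00309), named after its values were seen. The gene acdh-12 fell by 0.65 (SE 0.09, adjusted p = 2.04e-06), a call lost with library totals alone (-0.17, adjusted p = 0.0648), and acdh-13 by 0.76 (SE 0.11, adjusted p = 4.43e-06).

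A relative of acdh-1, acdh-2, had another course. It was at 46.6, 42.7 and 57.9 CPM at day 1 and at 0.436, 0.577 and 0.277 CPM at OP50 day 6, a fall of 6.84 log2 units (SE 0.44, adjusted p = 2.99e-10). In the OP50 libraries of days 11 to 17 it was between 0.514 and 1.11 CPM. On BRE acdh-2 was at 0.361, 0.204 and 0.11 CPM at day 6 and at 1.27, 0.952 and 1.81 CPM at day 17, which did not overlap. The difference of BRE from OP50 was not called at day 6 (-0.93, SE 0.39, adjusted p = 1.0) or at day 17 (0.82, SE 0.36, adjusted p = 0.601), and the change between those BRE days was not tested. The edgeR test of whether the BRE difference changed from day 6 to day 17 called 0 of 19290 genes. Its smallest unadjusted p among the 13 other acyl-CoA dehydrogenase genes, which include acdh-2, was 0.0033. In the OP50 libraries acdh-1 went from between 20.9 and 87.5 CPM at day 11 to under 1 CPM at day 17. Whether reads of these related genes were counted for one another was not examined.

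**Figure D4:**
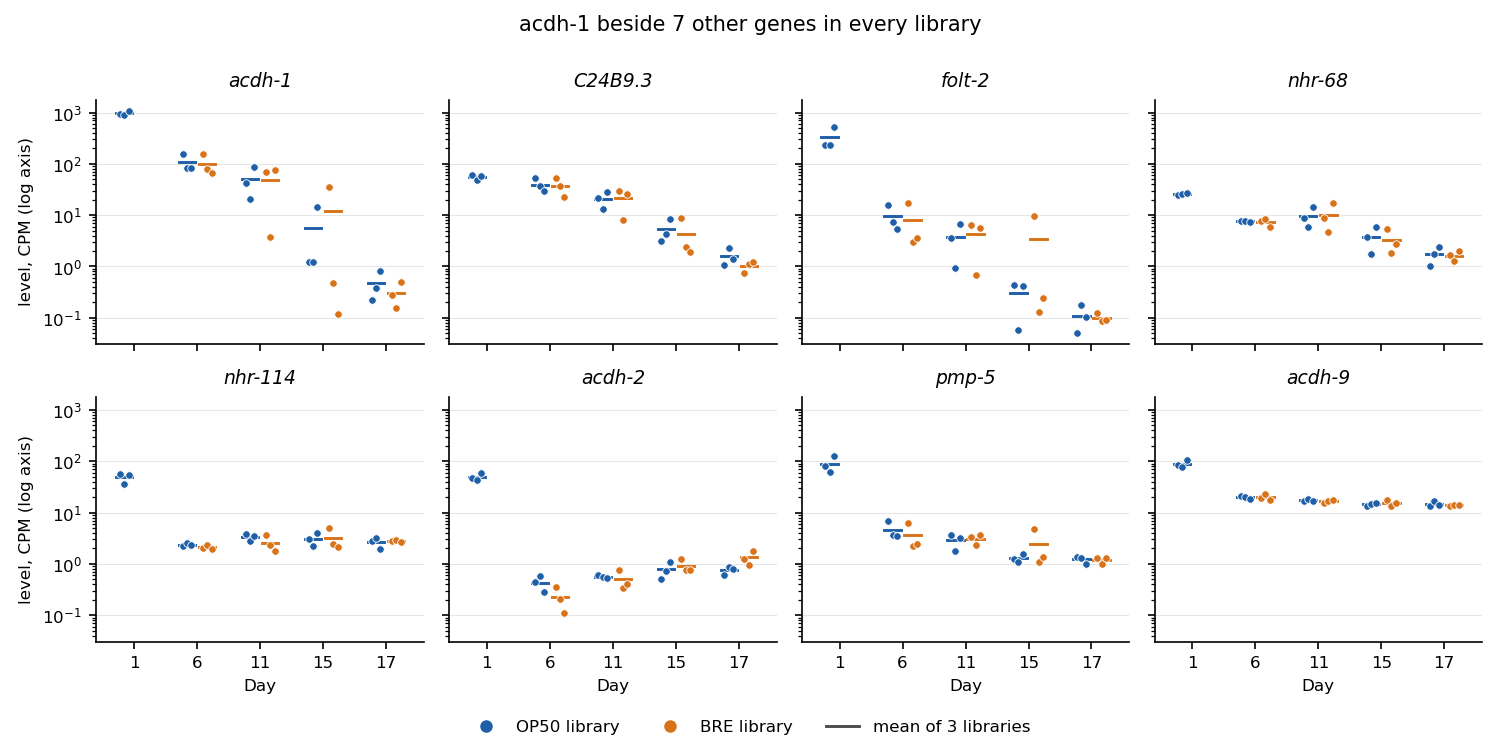
Levels in CPM on a shared log axis by day for acdh-1, C24B9.3, folt-2, nhr-68, nhr-114, acdh-2, pmp-5 and acdh-9, with 1 point per library (OP50 blue, BRE orange) and a bar at the mean of 3 libraries. The genes acdh-1, nhr-68, nhr-114, acdh-2, pmp-5 and acdh-9 drop between days 1 and 6. The mean of acdh-2 on BRE is 0.225 CPM at day 6 and 1.34 CPM at day 17, a change that was not tested. The genes acdh-1, C24B9.3, folt-2 and nhr-68 are lower at day 17 than at day 6.

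The genes whose log2 CPM ran most like acdh-1 over the 27 libraries, among 11553 genes, were C24B9.3 (Pearson r = 0.966), T05E12.6 (0.958), the aspartyl protease gene asp-13 (0.944), nhr-68 (0.944) and the folate transporter gene folt-2 (0.94). All points share the age series, so the same measure was also taken on deviations from the group means, a setting chosen after seeing the data. There C24B9.3 (0.875) and T05E12.6 (0.863) again ranked highest, folt-2 was at 0.844, asp-13 at 0.789 and nhr-68 at 0.769, and 4 of the 5 genes stayed among the first 5. At BRE day 15, where acdh-1 was at 35.5, 0.466 and 0.118 CPM, folt-2 was at 9.69, 0.131 and 0.243 CPM and C24B9.3 at 8.63, 2.37 and 1.95 CPM. The same library, replicate 1, was the highest in all 3 genes. How far the correlations on deviations rest on this group was not tested.

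For hphd-1 the most similar genes over 27 libraries were exc-15 (0.971), the collagen gene col-8 (0.969), F32D8.12 (0.968), Y47G6A.33 (0.968) and T28D6.3 (0.967). Only exc-15 and Y47G6A.33 stayed among the first 5 on deviations from the group means, at 0.784 and 0.824, and there C24B9.3, the gene most like acdh-1, came first for hphd-1 too (0.847). For mmcm-1 the genes were the patched-related gene ptr-2 (0.946), rde-10 of the RNA interference pathway (0.945), the acyl-CoA synthetase gene acs-4 (0.944), the RNA-binding protein gene mex-3 (0.939) and tag-153 (0.937). On deviations 0 of these 5 stayed among the first 5, but all still correlated with mmcm-1, from 0.868 for acs-4 to 0.917 for mex-3. Their levels included ptr-2 at 439 ± 14.4 CPM at day 1 and 237 ± 51.6 at OP50 day 17, and mex-3 at 1020 ± 99.4 and 658 ± 128 (SD, n = 3).

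Within groups the genes that varied together crossed the routes. On deviations from the group means over 27 libraries, acdh-1 correlated with hphd-1 at 0.65 and ech-6 with hach-1 at 0.69, while acdh-1 with ech-6 was at 0.26. The last shunt gene, alh-8, varied with route genes, at 0.74 with pcca-1, 0.71 with pccb-1 and 0.76 with mmcm-1, and at -0.14 with acdh-1. The route genes pcca-1, pccb-1 and mmcm-1 varied together, between 0.77 and 0.87, and mce-1 did not follow them (-0.07 with pcca-1). These values are descriptions, and the libraries share depth and scaling.

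The second comparison asked whether the extract changed these genes in worms of the same age. edgeR called 0 of the 10 genes on any of the 4 days, where the shares of all genes called were 0.0156% for day 6 and 0.0104% for day 11, and 0% for both day 15 and day 17. At day 15, 546 genes were at an unadjusted p under 0.05 and DESeq2 called 57, and at day 17 these counts were 1569 and 3. In the average of the 4 days it also called 0 of 10 (0.0467% of all genes). No member reached an unadjusted p under 0.05 in any of these 5 comparisons, and DESeq2 called 0 in each. The joint test that the BRE differences are not equal between days and the change of that difference from day 6 to day 17 also called 0 of 10 with edgeR (0% of all genes in both) and with DESeq2, with 0 at an unadjusted p under 0.05.

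For 8 of the 10 genes the averaged difference was bounded narrowly. The log2 difference was -0.05 for ech-6 (95% interval -0.19 to 0.1), -0.05 for hach-1 (-0.21 to 0.12) and -0.05 for alh-8 (-0.26 to 0.16). It was 0.04 for pcca-1 (-0.14 to 0.22), 0.03 for pccb-1 (-0.18 to 0.24), 0.1 for mce-1 (-0.09 to 0.29), 0.03 for mmcm-1 (-0.14 to 0.21) and 0.08 for metr-1 (-0.07 to 0.24). The interval was wider for hphd-1, at -0.02 (-0.45 to 0.41), and widest for acdh-1, at 0.09 (-1.22 to 1.39). An averaged change of acdh-1 by 1 log2 unit in either direction is therefore not excluded. On a single day the acdh-1 interval was wider still, from -2.48 to 2.3 at day 6. The largest single-day values among the other 8 were 0.32 for mce-1 at day 11 (-0.06 to 0.7) and 0.3 for metr-1 at day 17 (-0.01 to 0.61, unadjusted p = 0.054 by edgeR). The groups overlapped for every gene and day except ech-6 at day 17, where BRE at 73.2, 73.3 and 72.5 CPM lay below OP50 (log2 -0.16, 95% interval -0.45 to 0.14).

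**Figure D5:**
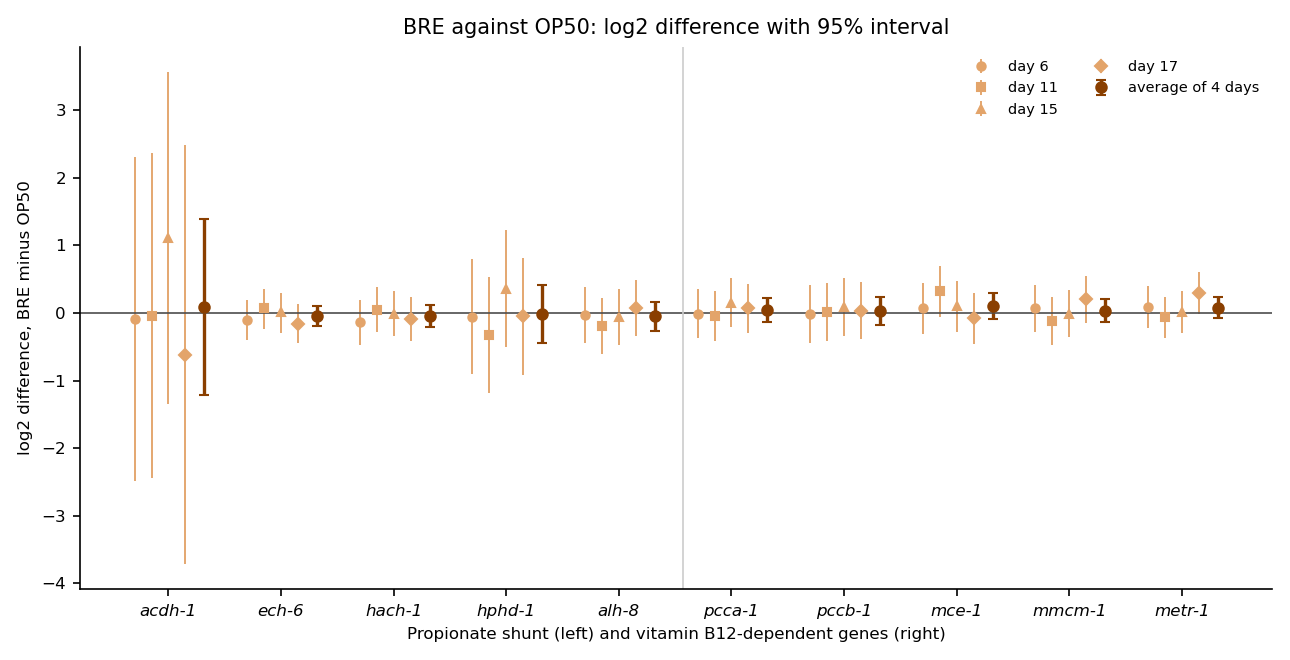
Log2 difference between BRE and OP50 worms of the same day for each gene, with the 95% interval of the edgeR fit, at days 6, 11, 15 and 17 (light markers) and as the average of the 4 days (dark marker). Every interval of the average spans 0, from -0.19 to 0.1 for ech-6 and from -1.22 to 1.39 for acdh-1.

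At days 6 and 11 libraries of the same number deviated together, and acdh-1 and hphd-1 show it at day 6. For replicates 1, 2 and 3, acdh-1 was at 155, 82.7 and 83.1 CPM on OP50 and at 157, 78.7 and 65.3 CPM on BRE, and hphd-1 was at 74, 58.9 and 27.3 CPM on OP50 and at 74.8, 55.2 and 24 CPM on BRE. The order of the replicates in hphd-1 was the same on both diets. With the replicate number as a block within the day, the log2 difference of acdh-1 was -0.13 at day 6 and -0.61 at day 11, against -0.09 and -0.04 without it, and none was called. At day 15 the difference of acdh-1 was 1.11 (95% interval -1.35 to 3.57) and depended on single libraries. With each library left out in turn it ran from -4.239 to 3.265, and the lowest value was without BRE day 15 replicate 1.

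In the average over 4 days edgeR called 0 genes in each of the 5 lists, with medians between -0.03 and 0.01. The log2 difference was -0.07 for nhr-68 (95% interval -0.53 to 0.38), -0.11 for nhr-114 (-0.41 to 0.18), 0.09 for nhr-10 (-0.1 to 0.28), -0.01 for acdh-2 (-0.37 to 0.35) and 0.15 for pmp-5 (-0.31 to 0.62). The ratio of shunt to route on BRE was 1.23 ± 0.116 at day 6 and 1.48 ± 0.24 at day 17, against 1.31 ± 0.173 and 1.58 ± 0.147 on OP50 (SD, n = 3). At days 11 and 15 it was 1.4 ± 0.281 and 1.3 ± 0.0681, against 1.45 ± 0.181 and 1.39 ± 0.0404 on OP50. The exact two-sided permutation p was 0.5 at days 6 and 17, 0.8 at day 11 and 0.2 at day 15. The smallest p this test allows is 0.1.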

How the data were processed

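The authors deposited raw counts per gene, not normalized, for 27 libraries of whole worms. They name HISAT2 2.0.5, featureCounts, SAMtools 1.7, Trimmomatic and FastQC, per the submitters' processing notes. Build, strand setting and parameters were not given in the sources used here. Even values made up 54.5% to 68.9% of each library's counts from 1 to 20, so fragments may have been counted as more than 1 read. Columns were assigned to libraries from their labels.

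Counts were analysed in R 4.3.3 with edgeR 4.0.16: TMM, filterByExpr (minimum count 10), quasi-likelihood tests with 1 mean for each of 9 groups (27 libraries), and Benjamini-Hochberg adjustment over 19290 genes. The SE was derived from the log2 difference and its F statistic, and intervals use the t distribution. CPM uses TMM-normalized totals, and log2 CPM a prior count of 2. Symbols were found for 44113 gene IDs, and loci and exon lengths come from WBcel235. The fit was also run on simulated counts, drawn without any effect of the replicate number. No result given here rests on that run.

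Same-day libraries that share a number were checked for pairing by the correlation of their deviations from group means, which was over 0.1 for every pair at day 6 (0.22, 0.19 and 0.31) and day 11 (0.5, 0.41 and 0.22), but not at days 15 and 17. At day 11 a pair of other numbers reached 0.23. DESeq2 1.42.0, RLE size factors, library totals alone, no filter, only the compared groups, replicate blocks and leaving out each library were alternatives, and leaving out the 4 sperm-rich libraries was chosen after seeing the data. Members and lists were chosen with earlier results of these data known. From each pathway list the text names up to 4 called genes with the smallest adjusted p at day 17 against day 1 and 6 genes fixed by name; the 5 genes most like acdh-1, hphd-1 and mmcm-1 are ranked by Pearson correlation among genes of at least 1 CPM.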

Additional observations from a re-analysis of the deposited data

How the results depend on the processing

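In the 4 comparisons with day 1, the number of genes called stayed within 1.5 times under every alternative run; single calls that changed stand in the report. Steps between days were less stable. For OP50 day 6 to 11 (2 called) library totals alone gave 0, the replicate block 4, no sperm-rich libraries 1 and leaving out single libraries 0 to 2. For BRE day 6 to 11 (2 called) these were 0 with library totals alone or only the compared groups, 4 with the replicate block, 5 with DESeq2 and 0 to 3 with single libraries left out. For OP50 day 11 to 15 (0 called), no filter, only the compared groups and DESeq2 gave 1 each and the replicate block 2. For BRE day 11 to 15 (1 called), RLE size factors, library totals alone, no filter, only the compared groups and no sperm-rich libraries gave 0, the replicate block 2 and single libraries left out 0 to 1. For BRE day 15 to 17 (0 called), DESeq2 gave 1 and single libraries left out 0 to 1. Across groups, 51 of 108 same-numbered pairs of libraries correlated over 0.1 (median 0.07), against 25 of 216 pairs of other numbers (median -0.05). Since not every same-numbered pair did, the numbers are not taken to pair all libraries, and these values are a hint from the data, not the design.

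Signs changed only for values that were small or not called, except mmaa-1 and mtrr-1. With library totals alone, which moved the median of all genes from 0.1 to 0.59 at day 17 against day 1, pcca-1 and mmcm-1 at day 6 were at 0.008 and 0.095, and at day 17 mmaa-1 was at 0.06, mtrr-1 at 0.111, mmab-1 at 0.351 and nhr-10 at 0.093. With the replicate block, acdh-1 on BRE was at -1.101 at day 15 and -0.61 in the average. Without the sperm-rich libraries, the BRE averages of pcca-1, pccb-1 and mmcm-1 were -0.024, -0.031 and -0.042. Leaving out single libraries, acdh-1 on BRE ran from -0.548 to 0.306 at day 6, -0.559 to 0.576 at day 11, -4.239 to 3.265 at day 15, -1.135 to 0.025 at day 17 and -1.256 to 0.62 in the average, and hphd-1 on BRE ran from -0.411 to 0.293 at day 6, -0.292 to 0.598 at day 15, -0.248 to 0.272 at day 17 and -0.185 to 0.059 in the average. The BRE averages ran from -0.019 to 0.081 for mmcm-1, -0.009 to 0.114 for pcca-1 and -0.017 to 0.083 for pccb-1, and at OP50 against day 1 mmcm-1 ran from -0.158 to 0.037 at day 6 and mmab-1 from -0.198 to 0.02 at day 17. The cause was not tested.

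Over all genes, calls moved by over 1.5 times as follows. BRE day 6 to 11 went from 2875 to 1299 with only the compared groups and 1663 without BRE day 6 replicate 1. OP50 day 11 to 15 went from 1148 to 2129 with DESeq2, 1892 with the block, 424 without the sperm-rich libraries and 610 without OP50 day 11 replicate 1. BRE day 11 to 15 went from 2352 to 605 with only the compared groups, 3842 with the block and 1033 without BRE day 11 replicate 3. From day 15 to 17 DESeq2 called 115 on OP50 (edgeR 0, and 78 without OP50 day 17 replicate 2) and 580 on BRE (edgeR 238, 381 with the block and 102 without BRE day 17 replicate 1). DESeq2 called 13, 7, 57 and 3 genes for BRE at days 6, 11, 15 and 17 and 28 in the average, against 3, 2, 0, 0 and 9, and the block within the day called 5, 3, 4, 1 and 15. Without the filter 14 were called at day 15 and 14 in the average, only the compared groups gave 0 at day 6 and 1 at day 11, and 1 was called at day 15 without the sperm-rich libraries. DESeq2 called 6 in the joint test of the days and 6 for day 17 minus day 6 (edgeR 0 in both). With 3 libraries a group, acdh-1 on BRE is the gene whose change is least bounded.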
